A study of Mus musculus with 21 samples.

Results

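The genes described here are 42 interferon-stimulated genes, taken by name from a fixed list, of 18193 genes named by the array. A gene's signal was read from a probe set that carries its symbol alone, using the probe set with the highest mean when it had several. Of the 42 genes, 40 had such a probe set and 39 passed the filter on dim probe sets, out of 13284 genes tested. Mx2 was measured but did not pass, Isg15 was present only on a probe set shared with the gene model Gm9706, and no signal of Ifi44 was analysed here.

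RNA came from cells sorted out of mouse spleen, on 21 Affymetrix arrays in 7 groups of 3, all C57BL/6. Dendritic cells (DCs) were sorted with the 33D1 antibody, which binds CD8-negative DCs with high CD11c, or with the DEC205 antibody, which marks CD8-positive DCs, each from mice injected with a Flt3L melanoma and from wild-type (WT) mice. Injected mice were taken at days 10 to 12, and each of their arrays held a pool of 20 mice. Flt3L expands DCs, and here it came together with a tumour, so the ligand and the tumour cannot be told apart. Each WT DC array held 40 to 80 mice. B cells, CD8 T cells and CD4 T cells came from pools of 5 to 8 WT mice. The labels give no age, and nothing in them shows that the pools of 1 group were prepared independently, so p-values reflect variation among the pools and may hold technical variation only. The study set out to identify the molecule bound by 33D1 and to compare antigen presentation between the DC subsets.

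Interferons are secreted proteins that warn cells of infection. Type I interferons bind the receptor made of Ifnar1 and Ifnar2, and the kinases Jak1 and Tyk2 then activate a complex that includes Stat2 and Irf9 and binds the interferon-stimulated response element in the promoters of target genes. Interferon-gamma acts through another receptor, and many of its target genes carry the gamma-activated site. The products of the target genes sense viral nucleic acids, degrade or sequester viral RNA, block viral entry and budding, and damage the vacuoles of intracellular pathogens. Many of them are also transcribed at a lower level in cells that have met no infection.

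The deposited values are MAS5 signals, scaled so that the trimmed mean of each array was 500, and array medians lay between 121.9 and 204.4. Differences are given on the scale log2(signal + 48.6), which understates the change of dim genes, with the standard error of the fit after each (n = 3 arrays a group), and a gene was called when limma's p, adjusted by the Benjamini-Hochberg method over all 13284 genes, was under 0.05. Ly75, which encodes the DEC205 antigen, had 197, 124 and 125 in 33D1 DCs and 2768, 2112 and 2324 in DEC205 DCs of Flt3L mice, and 117.4, 172 and 219 in 33D1 DCs and 3104, 3131 and 2682 in DEC205 DCs of WT mice, so the sorts stood apart in the direction of their labels. The summed signal of 9 T cell markers was 523 to 1172 on the DC arrays and 74220 to 94580 on the T cell arrays, and 8 of the 9 were below the table median of 156.3 on every DC array of each group. The summed signal of 9 B cell markers was 8456 to 10534 in 33D1 DCs and 3521 to 4032 in DEC205 DCs of WT mice, against 140938 to 152652 in B cells. In Flt3L mice the B cell marker sums were 9182 to 9932 in 33D1 DCs and 1412 to 2032 in DEC205 DCs. For 9 plasmacytoid DC markers the sums were 5902 to 6936 in 33D1 DCs and 4359 to 4445 in DEC205 DCs of WT mice. Of 10 tested plasmacytoid DC markers 3 were higher in 33D1 DCs of WT mice, led by Spib (3.47 ± 0.29), and 2 were lower, led by Ccr9 (-3.45 ± 0.26). Siglech, which defines plasmacytoid DCs, was not called in WT mice. It read 77.7, 116.6 and 169 in 33D1 DCs and 32.2, 161 and 74.9 in DEC205 DCs, close to or below the table median. In Flt3L mice 4 of the 10 tested markers were higher in 33D1 DCs and 1 was lower. Siglech was among the higher ones there (1.22 ± 0.34, limma adjusted p = 0.0111). The plasmacytoid DC marker sums in Flt3L mice were 6556 to 8222 in 33D1 DCs and 3068 to 3854 in DEC205 DCs. The part of B cells and plasmacytoid DCs in the subset differences was not tested.

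Each DC subset had an array on which many markers of the other subset read high. On replicate 3 of the DEC205 WT arrays, 9 of 11 markers of 33D1 DCs were at their highest in the group, and their sum was 14408 against 8716 and 9668 on the other arrays. The same array had a summed signal of 3250 for 7 neutrophil markers, against 1062 and 1198, and held the group's highest value of 8 of 13 macrophage markers. On replicate 3 of the 33D1 Flt3L arrays, 8 of 11 markers of DEC205 DCs were at their highest, and their sum was 10346 against 5175 and 5970. After these markers, both are called below the arrays that held transcripts of the other subset. Whether the transcripts came from DCs of that subset or from other cells was not tested. Counts without these arrays are given beside each comparison they enter, and the part of the other subset's transcripts in the values of single genes was not tested. For scale, the sum of the 33D1 DC markers was 99217 to 107492 in 33D1 DCs of WT mice. That of the DEC205 DC markers was 110054 to 119160 in DEC205 DCs of Flt3L mice.

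Most interferon-stimulated genes of the list were higher in 33D1 than in DEC205 DCs of WT mice. In 33D1 DCs, 23 of the 39 genes were higher than in DEC205 DCs and 3 were lower, while 13 were not called. In sorted pools, fewer cells that express a gene and less of its RNA per cell cannot be told apart. Over all genes tested 11.3% were called higher and 11.8% lower. The median difference of the 39 genes was 0.89 on the log2 scale, against 0.04 over all genes. On 26 genes every 33D1 array lay above every DEC205 array, and on 6 every 33D1 array lay below (19.3% and 19% of all genes). Without the replicate 3 arrays that held transcripts of the other subset, 22 genes were called higher and 3 lower. Of the 26 calls, 20 held under all 16 alternatives.

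**Figure D1:**
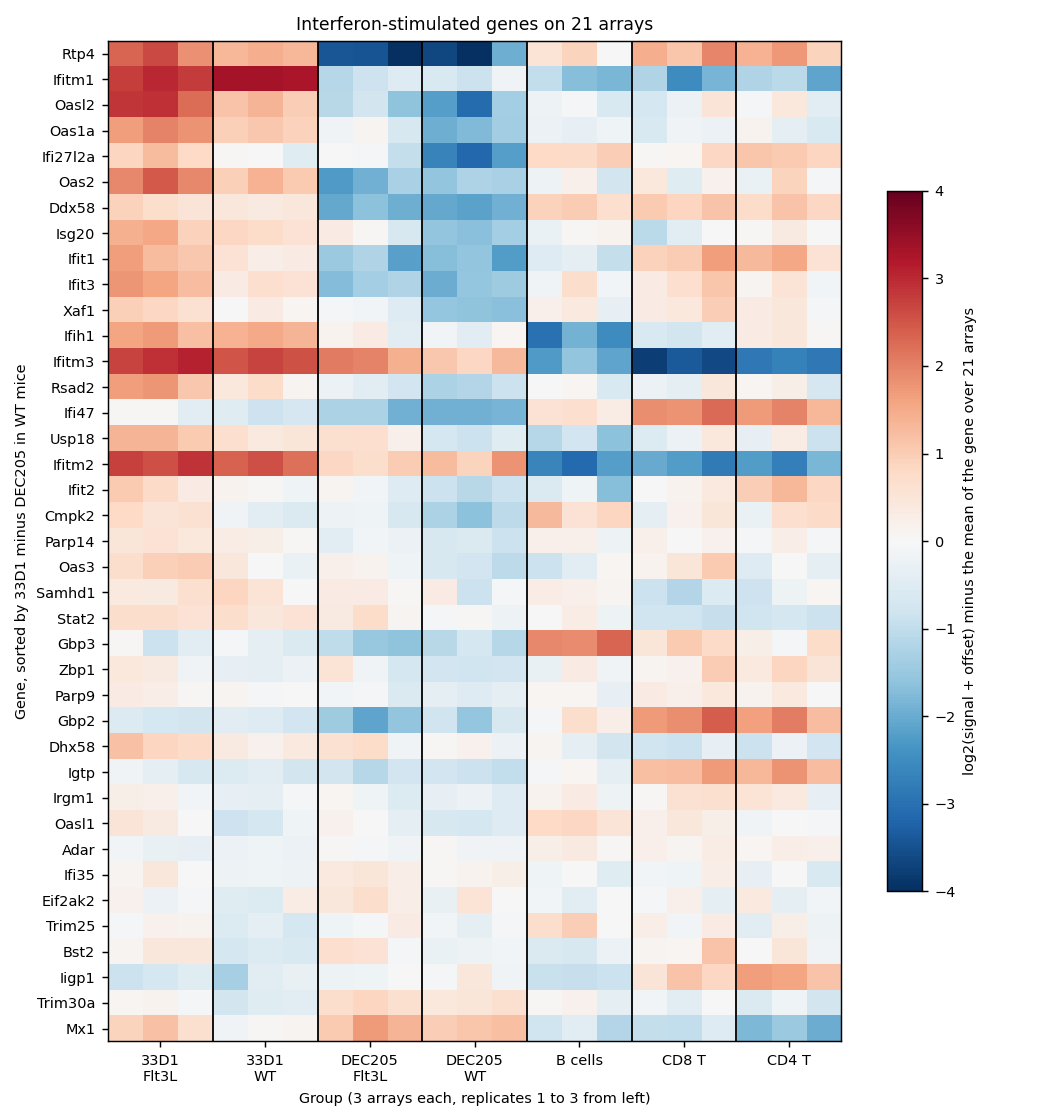
Signal of the 39 interferon-stimulated genes on the 21 arrays, as log2(signal + 48.6) minus the gene's mean over all arrays (red above, blue below, colours end at 4 in either direction). Columns are arrays in groups of 3 and rows are genes in the order of their difference between 33D1 and DEC205 DCs of WT mice. In the upper rows the DEC205 WT columns are blue and the 33D1 columns red. Ifitm2 and Ifitm3 are red in the DC groups and blue in lymphocytes. Ifitm1 is red in 33D1 DCs and blue in DEC205 DCs and lymphocytes, and Ifi47, Gbp2 and Igtp are red in T cells.

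The oligoadenylate synthetases make a second messenger that activates RNase L when they meet double-stranded RNA. In WT mice 4 of the 5 were higher in 33D1 DCs and none was lower. Oasl2 had 1038, 1223 and 929.6 signal units in 33D1 DCs and 59.7, 10 and 145 in DEC205 DCs, a difference of 3.37 ± 0.36 with an adjusted p of 1.82e-07. All 3 DEC205 arrays of Oasl2 were below the table median, so this difference rests on a dim signal. Oas1a had 3058, 3324 and 2945 in 33D1 DCs and 367, 421 and 561 in DEC205 DCs, a 6.41-fold difference on the offset scale (2.68 ± 0.19, adjusted p = 5.15e-10). For Oas2 the arrays read 1095, 1491 and 1171 in 33D1 DCs against 148, 201 and 192 in DEC205 DCs (2.50 ± 0.30, adjusted p = 1.07e-06). These 3 genes shared a layout with all 33D1 arrays far above all DEC205 arrays. Oas3 differed by 0.88 ± 0.24 (adjusted p = 0.0101). Oasl1, whose mouse product lacks synthetase activity, had group means of 350.1 ± 99.1 (SD, n = 3) in 33D1 DCs and 329 ± 24.6 (SD, n = 3) in DEC205 DCs and was not called (0.05 ± 0.18). Oasl2 and Oasl1 are adjacent genes on chromosome 5, so 1 of a neighbouring pair differed and the other did not pass the test.

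The Ifit proteins bind viral RNA that lacks the cap structure of host messages, and all 3 measured members were higher in 33D1 DCs of WT mice. Ifit1 had 669, 535 and 556 in 33D1 DCs and 98.4, 112 and 54.6 in DEC205 DCs (2.23 ± 0.28, adjusted p = 2.01e-06). Ifit3 differed by a similar amount, 2.18 ± 0.24, and Ifit2 by 0.94 ± 0.27 (adjusted p = 0.0128). The Ifitm proteins sit in membranes and hinder the fusion of enveloped viruses with the cell, and all 3 were also higher in 33D1 DCs. Ifitm1 had 4988, 5017 and 4778 in 33D1 DCs, within a narrow range, and 278, 227 and 408 in DEC205 DCs, a 14.4-fold difference (3.85 ± 0.30, adjusted p = 1.8e-09). Ifitm3 had 17217, 19238 and 17302 in 33D1 DCs and 6306, 5243 and 7239.7 in DEC205 DCs, a smaller difference of 1.52 ± 0.18 between signals that were bright in both. Ifitm2 differed by 1.06 ± 0.25, and its highest DEC205 value, 3756, was on the array that held 33D1 transcripts.

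Among 6 sensors and binders of nucleic acids, 2 were higher in 33D1 DCs and 4 were not called. Ddx58, which encodes the RNA sensor RIG-I, had 1934, 1782 and 1932 in 33D1 DCs and 298, 276 and 327 in DEC205 DCs (2.47 ± 0.14, adjusted p = 1.42e-11). No DEC205 array came near the 33D1 arrays. Ifih1, which encodes the long double-stranded RNA sensor MDA5, differed by 1.58 ± 0.23 (adjusted p = 1.26e-05). Dhx58, which encodes LGP2, the RNA-binding relative of both, had 0.31 ± 0.23. The RNA-dependent kinase Eif2ak2 had -0.34 ± 0.25, the RNA-editing enzyme Adar -0.15 ± 0.10, and the Z-form nucleic acid sensor Zbp1 0.47 ± 0.26. A second, dimmer probe set of Zbp1 gave a difference of 1.48 in the same direction, so the probe sets of that gene disagree in size. Dimmer probe sets of Adar gave 0.39 and 0.24, so the probe sets of Adar disagree in sign.

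Bst2, Rsad2, Isg20 and 6 further effector genes made up a group of 9, of which 6 were higher in 33D1 DCs of WT mice and none was lower. Rtp4, a chaperone that carries certain receptors to the cell surface, had the largest difference of the 39 genes. Its signal was 2990.1, 3222 and 3002 in 33D1 DCs and 48, 27 and 265 in DEC205 DCs, a 23.7-fold difference (4.56 ± 0.39, adjusted p = 7.36e-09). The highest DEC205 value was on the array that held 33D1 transcripts. Since the DEC205 signal is near the bottom of the scale, the size of this difference depends on the offset. It also depends on the probe set, as a second, far dimmer probe set of Rtp4 gave 1.12. Over 16 alternative settings, which include other offsets and the mean of both probe sets, the difference lay between 2.84 and 5.19. Ifi27l2a, which encodes a small membrane protein, had 4467, 4393 and 3074 in 33D1 DCs and 631, 444 and 904 in DEC205 DCs (2.54 ± 0.25, adjusted p = 6.3e-08). Isg20, an exonuclease that degrades RNA, had 1987, 1865 and 1674 in 33D1 DCs and 334, 317 and 399 in DEC205 DCs (2.25 ± 0.24, adjusted p = 1.92e-07). In each of these genes the groups did not overlap.

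Xaf1, an antagonist of the caspase inhibitor XIAP, differed by 1.76 ± 0.19 (adjusted p = 2.16e-07). A second Xaf1 probe set, dimmer by a wide margin, gave 0.16, and the mean of both gave 0.96. Rsad2 encodes viperin, which makes a nucleotide that ends viral RNA chains, and Cmpk2 encodes the nucleotide kinase that feeds it. They lie next to each other on chromosome 12, and they differed by 1.51 ± 0.26 and 0.92 ± 0.26. Samhd1, which hydrolyses deoxynucleotides, had 0.67 ± 0.25 and was not called (adjusted p = 0.062). Bst2 encodes tetherin, which holds budding virions at the membrane and also serves as a marker of plasmacytoid DCs in mice. It had a mean of 576 ± 34.5 (SD, n = 3) in 33D1 DCs and 798 ± 52.6 (SD, n = 3) in DEC205 DCs and was not called (-0.44 ± 0.23). Ifi35, read from a probe set that may match several genes, had -0.33 ± 0.16.

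Stat2 is itself a subunit of the factor that type I interferon activates, and Parp9 and Parp14 belong to the ADP-ribosyltransferase family. All 3 were higher in 33D1 DCs of WT mice, by 0.89 ± 0.14 for Parp14, 0.65 ± 0.15 for Stat2 and 0.46 ± 0.14 for Parp9. Usp18 removes ISG15 from proteins and restrains the type I receptor. It had means of 2165 ± 204 (SD, n = 3) in 33D1 DCs and 918 ± 121 (SD, n = 3) in DEC205 DCs (1.20 ± 0.25, adjusted p = 0.00107). The shared probe set of Isg15 and Gm9706, which was not tested, read 1092, 1329.8 and 1217 in 33D1 DCs and 487, 463 and 648 in DEC205 DCs, so the groups did not overlap there either. Trim25, a ubiquitin ligase that acts on RIG-I, had -0.37 ± 0.21 and was not called; its probe set may also match several genes.

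Not every gene of the list followed this direction. Mx1 had 777, 896 and 924 in 33D1 DCs and 1762, 1899.7 and 2036 in DEC205 DCs (-1.09 ± 0.20, adjusted p = 0.000176), so it was lower in 33D1 DCs. Mx1 encodes a GTPase against influenza virus whose allele in C57BL/6 and most laboratory strains carries a deletion. Trim30a, which restrains Toll-like receptor signalling in mice, had 2876, 3452 and 3556 in 33D1 DCs and 6518, 6839.7 and 7571 in DEC205 DCs (-1.07 ± 0.15, adjusted p = 9.99e-06), and its other probe set gave -0.99. Iigp1, a GTPase that attacks pathogen vacuoles, had 209, 438 and 484 in 33D1 DCs and 581, 849 and 547 in DEC205 DCs (-0.78 ± 0.23, adjusted p = 0.0156). These 3 genes were the only ones called lower, and on each the groups did not overlap. The call of Iigp1 was lost under 3 of 16 alternatives, its difference lay between -1.15 and -0.45 over the 16, and its adjusted p reached 0.146 without replicate 1 of the 33D1 arrays.

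The GTPases had no common direction. Of 7 tested, 1 was higher and 2 were lower in 33D1 DCs of WT mice, and 4 were not called. The higher one was Ifi47, with 1.25 ± 0.19 (adjusted p = 2.12e-05). The guanylate-binding proteins Gbp3 and Gbp2 had 0.65 ± 0.25 and 0.41 ± 0.25, and the immunity-related GTPases Igtp and Irgm1 0.29 ± 0.18 and 0.10 ± 0.21. Mx2 was below the table median on all of these arrays, with 39.6, 46 and 56.9 in 33D1 DCs and 42.8, 62.8 and 43.6 in DEC205 DCs.

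**Figure D2:**
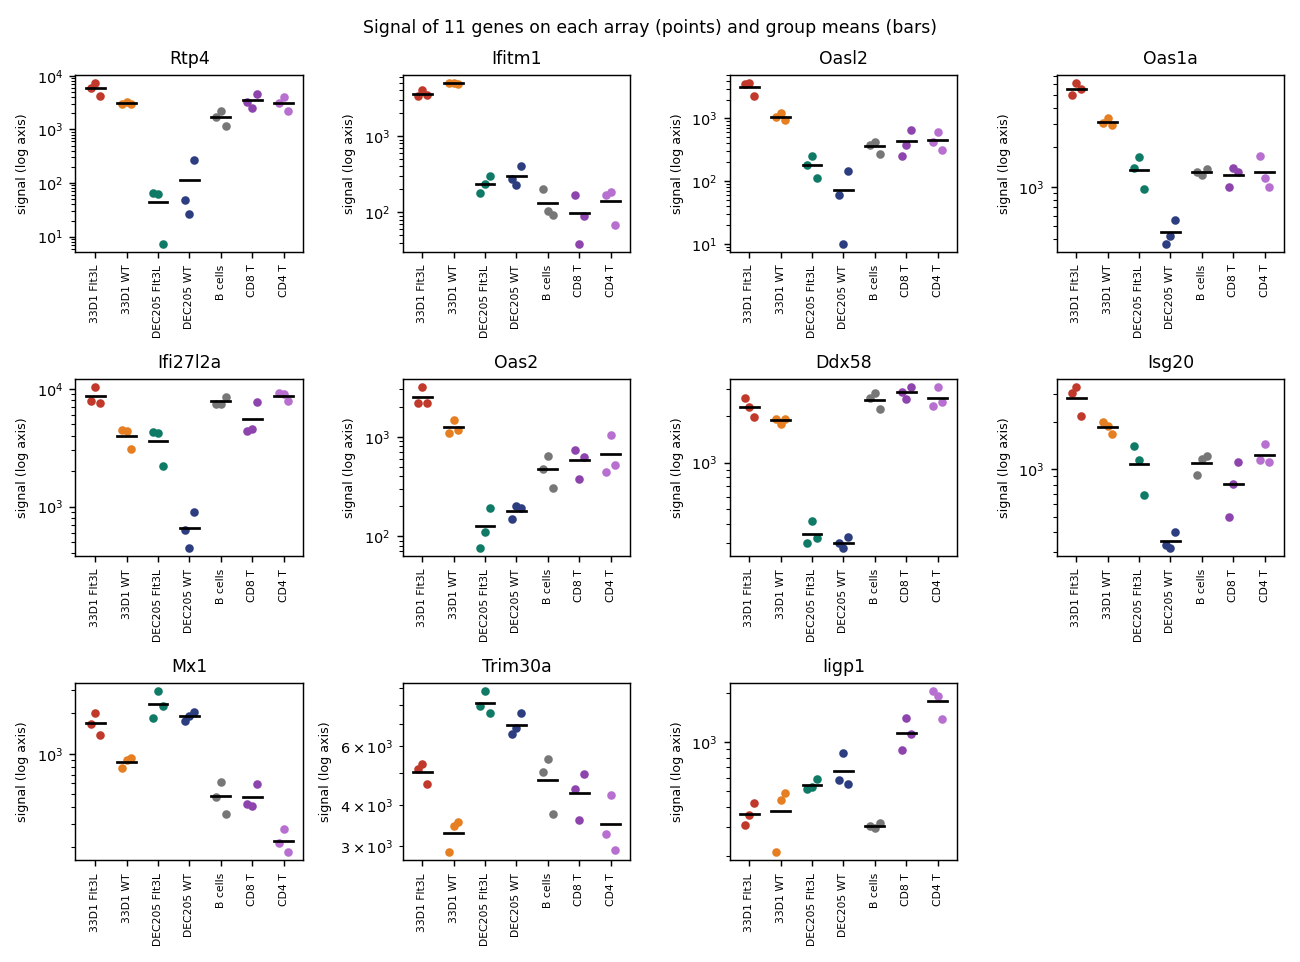
Signal on each array (points, log axis) and group means (bars) for the 8 genes with the largest called differences and the 3 called lower in 33D1 against DEC205 DCs of WT mice. In the first 8 panels the DEC205 WT points lie below the 33D1 WT points, from 23.7-fold for Rtp4 to 4.75-fold for Isg20, and in the panels of Mx1, Trim30a and Iigp1 they lie above.

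Promoters were read from RefSeq tables of GRCm38.p6, which held 38 promoters for 31 of the 42 genes, each covering 250 bases before to 50 bases after a transcript start. Rtp4, Oas2, Mx1, Mx2, Usp18, Dhx58, Ifi27l2a, Parp9, Parp14, Zbp1 and Iigp1 have no entry. The core of the interferon-stimulated response element was searched as GAAANNGAA and the gamma-activated site as TTCNNNGAA, on both strands. The first occurred in 22 of the 38 promoters (57.9%), against 8.56% of 32851 promoters in the table, and the second in 10 of 38 (26.3%) against 8.3%. Matches of the 2 motifs overlapped in 2 of the 38. Among genes with an entry, the response element core was found for 10 of 17 genes that were higher in 33D1 DCs of WT mice and for 9 of 12 tested genes that were not called or lower. A match is a run of letters and not a measured binding site.

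The promoters below belong to genes on either side of the subset difference, with the response element core in capitals on whichever strand it was found. Ifit1 and Oas1a, both higher in 33D1 DCs, hold 3 and 2 overlapping or neighbouring cores, Ddx58 and Ifitm1, also higher, hold 1 and none, and Trim30a, lower in 33D1 DCs, holds 1 in the promoter shown.
Ifit1 (chr19:34640639-34640938, plus strand): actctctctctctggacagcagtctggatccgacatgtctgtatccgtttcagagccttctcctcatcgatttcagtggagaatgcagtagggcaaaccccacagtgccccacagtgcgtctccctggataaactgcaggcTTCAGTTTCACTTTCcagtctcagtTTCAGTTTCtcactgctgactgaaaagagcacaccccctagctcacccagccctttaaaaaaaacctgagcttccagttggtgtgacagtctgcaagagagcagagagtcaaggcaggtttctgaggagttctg
Oas1a (chr5:120907476-120907775, minus strand): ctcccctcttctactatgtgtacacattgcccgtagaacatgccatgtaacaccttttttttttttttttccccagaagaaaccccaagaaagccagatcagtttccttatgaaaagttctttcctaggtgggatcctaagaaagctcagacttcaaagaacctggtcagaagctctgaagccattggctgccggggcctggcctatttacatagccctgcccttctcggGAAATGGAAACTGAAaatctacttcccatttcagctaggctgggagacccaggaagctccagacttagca
Ddx58 (chr4:40239776-40240075, minus strand): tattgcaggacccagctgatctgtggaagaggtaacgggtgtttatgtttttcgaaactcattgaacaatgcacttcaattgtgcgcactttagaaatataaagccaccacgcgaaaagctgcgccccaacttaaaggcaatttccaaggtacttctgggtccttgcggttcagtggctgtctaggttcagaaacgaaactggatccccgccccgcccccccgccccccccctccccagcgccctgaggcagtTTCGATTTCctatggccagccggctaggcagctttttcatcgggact
Ifitm1 (chr7:140967826-140968125, plus strand): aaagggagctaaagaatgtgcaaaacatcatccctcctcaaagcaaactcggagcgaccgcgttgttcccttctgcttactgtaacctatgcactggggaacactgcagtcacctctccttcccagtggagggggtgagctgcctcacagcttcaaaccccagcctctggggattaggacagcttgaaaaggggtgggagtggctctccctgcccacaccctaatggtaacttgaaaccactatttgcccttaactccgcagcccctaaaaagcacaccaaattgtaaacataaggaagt
Trim30a (chr7:104465144-104465443, minus strand): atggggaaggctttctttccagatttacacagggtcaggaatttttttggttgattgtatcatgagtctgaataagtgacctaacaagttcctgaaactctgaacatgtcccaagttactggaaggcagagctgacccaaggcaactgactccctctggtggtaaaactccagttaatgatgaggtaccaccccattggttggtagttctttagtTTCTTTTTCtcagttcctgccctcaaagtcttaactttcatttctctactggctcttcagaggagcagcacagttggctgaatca

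Counting the base at the start as 1, with no base 0, the cores of Oas1a begin at -20 and -14, those of Ifit1 at -109, -103 and -84, that of Ddx58 at 4 and that of Trim30a at -35. Ifit3, which was also higher in 33D1 DCs, has cores at -155, -121 and -102. Oasl2, whose subset difference was among the largest in the list, has none in this window.

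The same subset comparison in Flt3L mice used other arrays, so it repeats the measurement in other pools. In 33D1 DCs of Flt3L mice 25 of the 39 genes were higher than in DEC205 DCs, 1 was lower and 13 were not called, where 11.7% of all genes were called higher and 11.8% lower. The median difference was 0.88 against 0.04 over all genes. Of the genes called, 22 were higher in both kinds of mice, Trim30a was lower in both, none was called in opposite directions, 3 were called in WT mice alone and 3 in Flt3L mice alone. Over all genes tested, 1131 were higher in both, 1195 lower in both and 1 opposite. Without the arrays that held transcripts of the other subset, 24 genes were called higher and 1 lower. Of the 26 calls, 18 held under all 16 alternatives.

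In Flt3L mice Rtp4 had the largest difference at the offset used, with 5995, 7457 and 4213 in 33D1 DCs and 64.2, 62.7 and 7.3 in DEC205 DCs (6.02 ± 0.39, adjusted p = 9.03e-11). All 3 DEC205 values were below the table median. The dimmer Rtp4 probe set gave 1.64 here, and the difference lay between 3.83 and 6.77 over 16 alternatives, which include the mean of both probe sets. Oas2 had 2182, 3191 and 2179 in 33D1 DCs and 75.3, 109 and 192 in DEC205 DCs (3.92 ± 0.30), and Ifitm1 had 3349, 4005 and 3441 and 179.6, 235 and 301 (3.68 ± 0.30). Both genes kept wide gaps between the groups. Ddx58 had 2644, 2303 and 1988 in 33D1 DCs and 297, 413 and 320.5 in DEC205 DCs, a difference of 2.59 ± 0.14 that lay close to the 2.47 of WT mice. The GTPases Gbp2, Gbp3 and Igtp, which were not called in WT mice, were called higher here, by 1.04 ± 0.25, 0.95 ± 0.25 and 0.50 ± 0.18, and the call was lost under 1, 1 and 7 of 16 alternatives. Trim30a was lower (-0.69 ± 0.15, adjusted p = 0.00159). Mx1 and Iigp1 had differences of -0.46 ± 0.20 and -0.54 ± 0.23, in the WT direction, and were not called. Stat2, called in WT mice, had 0.25 ± 0.15 here.

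**Figure D3:**
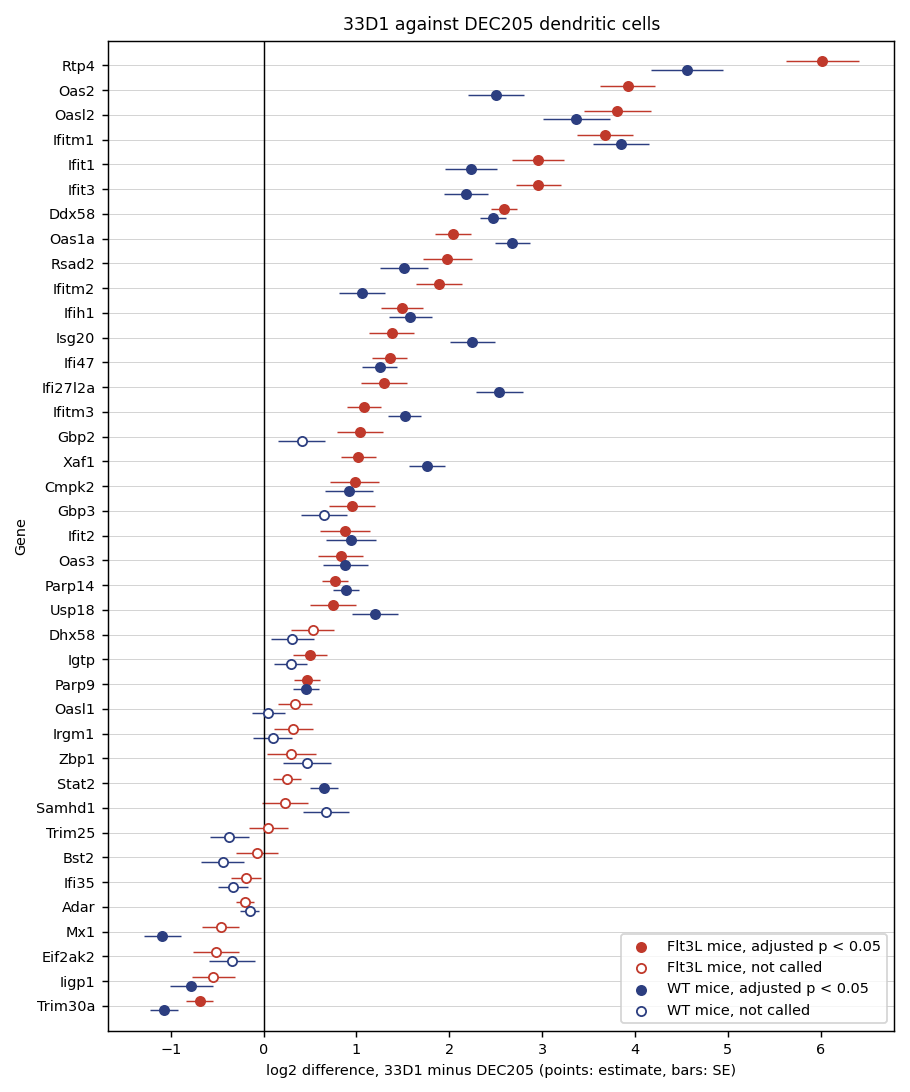
Log2 difference of each of the 39 genes between 33D1 and DEC205 DCs, in Flt3L mice (red) and WT mice (blue), with standard errors of the limma fit as bars and filled points for an adjusted p under 0.05. Most points lie right of 0 in both kinds of mice, and the 3 genes called lower in WT mice, Mx1, Trim30a and Iigp1, lie left of it.

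In 33D1 DCs the genes of the list were shifted upward in Flt3L mice, but few passed the test and the calls were not stable. Of 39 genes, 8 were called higher in Flt3L than in WT mice and none lower (0.851% and 0.158% of all genes), with a median difference of 0.59 against 0 over all genes. The difference was positive for 34 of the 39 genes (50.4% of all genes), and for 27 every Flt3L array lay above every WT array (10.5% of all genes), while 1 gene, Ifitm1, lay wholly below (7.9%). The count of called genes fell to 0 when replicate 1 or replicate 2 of either group was left out, and it was 4 without replicate 3 of the Flt3L group and 1 without replicate 3 of the WT group. It was also 0 when each array was centred on its median and 17 when only the 6 arrays of this comparison entered the fit. None of the 8 genes was called under all 16 alternatives, and none changed sign under any of them. Without the arrays that held transcripts of the other subset, 5 genes were called. In the same comparison 1 of 11 markers of 33D1 DCs was lower, and 1 of 9 B cell and 1 of 10 plasmacytoid DC markers were higher. The plasmacytoid DC marker was Bst2, itself 1 of the 8 called genes, so it adds no separate observation. Siglech was not called (0.69 ± 0.34). The part of other cells in the result was not tested.

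Oasl2 had 3534, 3729 and 2263 in 33D1 DCs of Flt3L mice and 1038, 1223 and 929.6 in those of WT mice (1.51 ± 0.36, adjusted p = 0.0417), the largest of the 8 differences. Ifi27l2a had 7890.5, 10409 and 7572 in Flt3L mice and 4467, 4393 and 3074 in WT mice (1.11 ± 0.25, adjusted p = 0.0302). Rsad2 had 2575, 2787 and 1685 in Flt3L mice and 1062, 1333 and 837 in WT mice (1.08 ± 0.26, adjusted p = 0.0491). In these 3 genes the groups did not overlap. The lowest Flt3L value of each was on replicate 3, the array with DEC205 transcripts, and the part of those transcripts in it was not tested. Ifit3 had 3092, 2684 and 2090.1 in Flt3L mice and 1088, 1411 and 1331 in WT mice (1.0 ± 0.24, adjusted p = 0.0455). Bst2 had 986, 1267 and 1268 in Flt3L mice and 538, 604 and 588 in WT mice (0.96 ± 0.23, adjusted p = 0.0478). Mx1 had 1660.4, 2020.4 and 1385 in Flt3L mice and 777, 896 and 924 in WT mice (0.91 ± 0.20, adjusted p = 0.0213), so this gene, which was lower in 33D1 than in DEC205 DCs of WT mice, was higher in 33D1 DCs of Flt3L than of WT mice. Oasl1 and Oas1a were also called, at 0.84 ± 0.18 and 0.83 ± 0.19. By family, 3 of 5 oligoadenylate synthetases, 1 of 3 Ifit genes and none of the 3 Ifitm genes were called, and Ifitm1 had -0.45 ± 0.30. Mx2, which was not tested, read 150, 366 and 82.1 in Flt3L mice and 39.6, 46 and 56.9 in WT mice.

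In DEC205 DCs 6 of the 39 genes were higher in Flt3L than in WT mice and none was lower (1.22% and 0.888% of all genes), and the median difference was 0.37 against -0.01. Here 31 of the 39 differences were positive (48.9% of all genes), and on 16 genes the Flt3L arrays lay wholly above the WT arrays (10.8% of all genes), and on none wholly below (9.16%). Ifi27l2a, Oas1a, Isg20 and Xaf1 were called under all 16 alternatives. Usp18 was lost under 4 and Ifitm3 under 7. Without the arrays that held transcripts of the other subset 7 genes were called. Markers of other cells moved in the same comparison, and their part in it was not tested: 5 of 11 markers of 33D1 DCs were lower in Flt3L than in WT mice (median -1.09), as were 3 of 10 macrophage markers (median -0.61) and 1 of 9 B cell markers (median -0.18).

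Ifi27l2a had 4303, 4205 and 2222 in DEC205 DCs of Flt3L mice and 631, 444 and 904 in those of WT mice, a 5.09-fold difference (2.35 ± 0.25, adjusted p = 1.26e-05). Oas1a had 1392, 1681 and 965 in Flt3L mice and 367, 421 and 561 in WT mice (1.47 ± 0.19, adjusted p = 0.000149). Isg20 had 1404, 1149 and 686 in Flt3L mice and 334, 317 and 399 in WT mice (1.45 ± 0.24, adjusted p = 0.00149). In each of them replicate 3 was the lowest of the Flt3L arrays and still lay above every WT array. Xaf1 had 1610, 1547 and 1153 in Flt3L mice and 546, 514 and 490.2 in WT mice (1.38 ± 0.19, adjusted p = 0.00024). The dimmer Xaf1 probe set gave 0.09 here, and the mean of both gave 0.74. Usp18 had 2359, 2425 and 1742 in Flt3L mice and 896, 808 and 1048 in WT mice (1.20 ± 0.25, adjusted p = 0.0147). Ifitm3 had 12453, 11718 and 7917 in Flt3L mice and 6306, 5243 and 7239.7 in WT mice (0.75 ± 0.18, adjusted p = 0.0281). These groups did not overlap, although the lowest Flt3L value of Ifitm3 was close to the highest WT value. Over the 39 genes, replicate 3 of the DEC205 Flt3L arrays had a median 0.29 below its own group's mean on the log2 scale, and 9 genes above it. Arrays of other groups shifted too. This median was -0.24 on replicate 3 of the B cells and -0.23 on replicate 3 of the CD4 T cells. It was 0.27 on replicate 2 of the CD4 T cells and on replicate 3 of the CD8 T cells. The same median over all genes lay between -0.04 and 0.04 on every array. Counts of the 39 genes are thus not counts of independent observations.

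**Figure D4:**
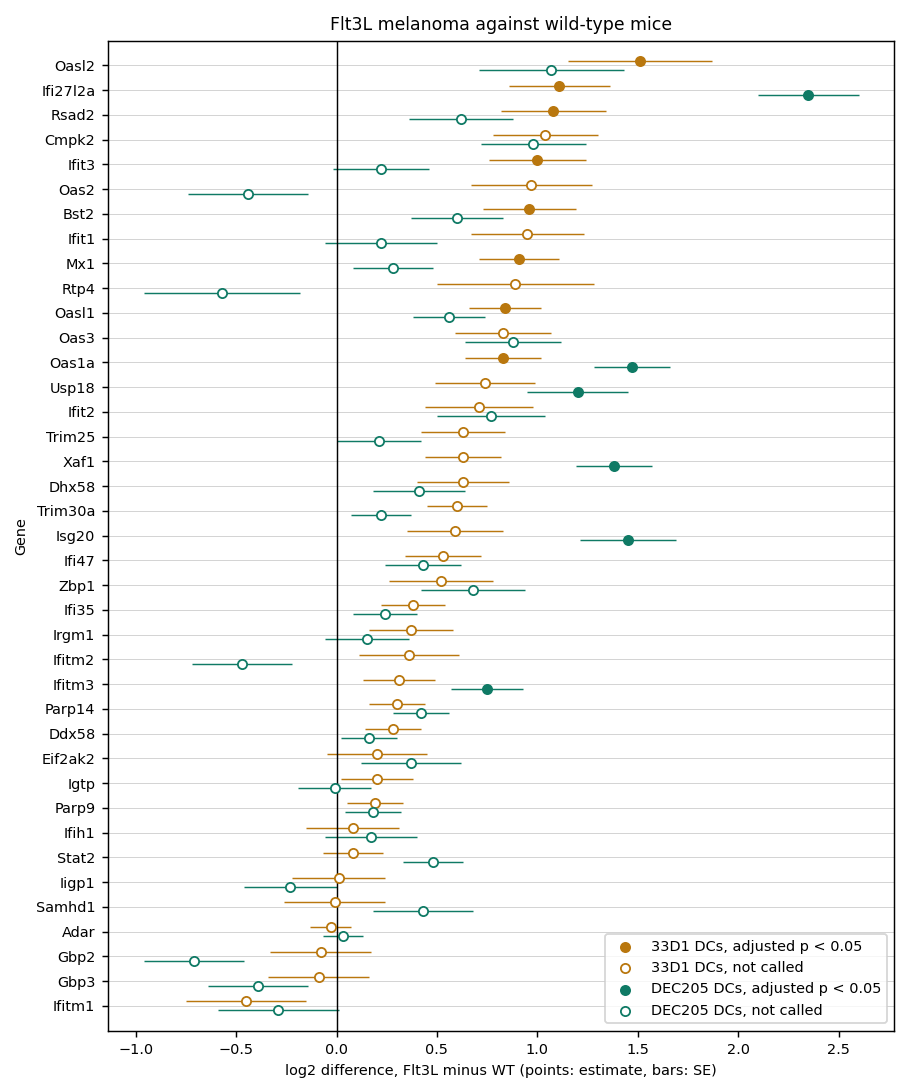
Log2 difference of each of the 39 genes between Flt3L and WT mice, in 33D1 DCs (brown) and DEC205 DCs (green), with standard errors of the limma fit as bars and filled points for an adjusted p under 0.05. Points lie right of 0 for 34 genes in 33D1 DCs and 31 in DEC205 DCs, and 8 and 6 of them are filled.

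Ifi27l2a and Oas1a were called in both subsets, 6 further genes in 33D1 DCs and 4 in DEC205 DCs, and 27 in neither. Passing the test in a single subset does not show that the subsets differ, and the difference between the Flt3L effects was tested on its own. None of the 39 genes passed that limma test, with or without the arrays that held transcripts of the other subset (0.105% of all genes did with them). An unadjusted p under 0.05 was found for 9 of the 39 (4.78% of all genes), 5 with a larger effect in 33D1 DCs and 4 with a larger effect in DEC205 DCs. Rtp4 had 1.46 ± 0.55, Oas2 1.41 ± 0.42 and Ifi27l2a -1.24 ± 0.35 for the effect in 33D1 minus the effect in DEC205 DCs, and the smallest adjusted p of these was 0.356. The Flt3L comparisons share arrays with the subset comparisons above, so their values are only set side by side.

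In the WT mice the level of the 39 genes depended on the cell type in more than 1 way. The group with the highest mean signal was 33D1 DCs for 14 genes, CD8 T cells for 11, B cells and CD4 T cells for 5 each, and DEC205 DCs for 4. DEC205 DCs had the lowest mean for 23 of the 39. The same ranking was not made over all genes, so these counts have no background beside them. Relative to the mean of all 21 arrays, the median of the 39 genes on an array was 0.05 to 0.15 in 33D1 DCs, -0.80 to -0.64 in DEC205 DCs, -0.21 to 0.08 in B cells, 0.05 to 0.41 in CD8 T cells and -0.06 to 0.37 in CD4 T cells on the log2 scale. The DEC205 WT arrays were thus below all other WT arrays, and the ranges of 33D1 DCs and lymphocytes overlapped.

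Against B cells, 33D1 DCs had 14 genes higher and 11 lower (15.8% and 18.3% of all genes), with a median of 0.20 against -0.06. Against the mean of both T cell groups, they had 13 higher and 16 lower (19.5% and 24.7%), with a median of -0.19 against -0.13. DEC205 DCs had 7 genes higher and 22 lower than B cells (18.3% and 20.7%), with a median of -0.73 against -0.08, and 7 higher and 25 lower than T cells (21.7% and 27.5%), with a median of -0.94 against -0.16. Without the arrays that held transcripts of the other subset, DEC205 DCs had 6 genes higher and 19 lower than B cells, and 7 higher and 24 lower than T cells. When each array was centred on its median, 33D1 DCs had 10 genes higher and 6 lower than B cells, and the counts against T cells were 13 higher and 7 lower for 33D1 DCs and 7 higher and 22 lower for DEC205 DCs. The 4 comparisons share arrays, so they are not independent of each other.

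The Ifitm genes stood apart as genes of DCs. Ifitm3 had means of 17920 ± 1140 (SD, n = 3) in 33D1 DCs and 6263 ± 999 (SD, n = 3) in DEC205 DCs, against 726 ± 209 (SD, n = 3) in B cells, 203 ± 36.4 (SD, n = 3) in CD8 T cells and 378 ± 25.7 (SD, n = 3) in CD4 T cells. The difference from T cells was 5.78 ± 0.15 for 33D1 DCs and 4.26 ± 0.15 for DEC205 DCs. Ifitm2 had 5611, 6459 and 5017 in 33D1 DCs and 2584, 2013 and 3756 in DEC205 DCs, against 126, 78.9 and 188 in B cells. Ifitm1 was 33D1-dominated, with a difference of 4.98 ± 0.26 from T cells in 33D1 DCs and 1.13 ± 0.26 in DEC205 DCs. Ifih1 was also higher in 33D1 DCs than in B cells (3.87 ± 0.23) and T cells (1.57 ± 0.20), and Mx1 was higher in both DC subsets than in T cells, by 1.28 ± 0.17 in 33D1 and 2.38 ± 0.17 in DEC205 DCs.

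Of the GTPases, Ifi47, Gbp2, Gbp3 and Igtp were lower in both DC subsets than in B cells and in T cells. Irgm1 was lower than in T cells and not called against B cells, and Iigp1 was lower than in T cells but higher in DEC205 DCs than in B cells (0.97 ± 0.23). Ifi47 had means of 1491 ± 187 (SD, n = 3) in 33D1 DCs and 594 ± 15.4 (SD, n = 3) in DEC205 DCs, against 3403 ± 467 (SD, n = 3) in B cells, 9494 ± 1690 (SD, n = 3) in CD8 T cells and 7760 ± 1770 (SD, n = 3) in CD4 T cells. Its difference from T cells was -2.47 ± 0.16 in 33D1 DCs and -3.73 ± 0.16 in DEC205 DCs. Gbp2 and Igtp differed from T cells by -2.40 ± 0.22 and -2.0 ± 0.15 in 33D1 DCs and by -2.81 ± 0.22 and -2.29 ± 0.15 in DEC205 DCs. Rtp4, Ddx58 and Ifi27l2a had their lowest WT means in DEC205 DCs. Rtp4 had 1729, 2166 and 1164 in B cells, 3238, 2535 and 4647 in CD8 T cells and 3090.3, 3981 and 2207 in CD4 T cells, and 33D1 DCs differed from T cells by -0.05 ± 0.34 while DEC205 DCs had -4.62 ± 0.34. For Ddx58 the differences from T cells were -0.53 ± 0.12 with 33D1 DCs and -3.00 ± 0.12 with DEC205 DCs.

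**Figure D5:**
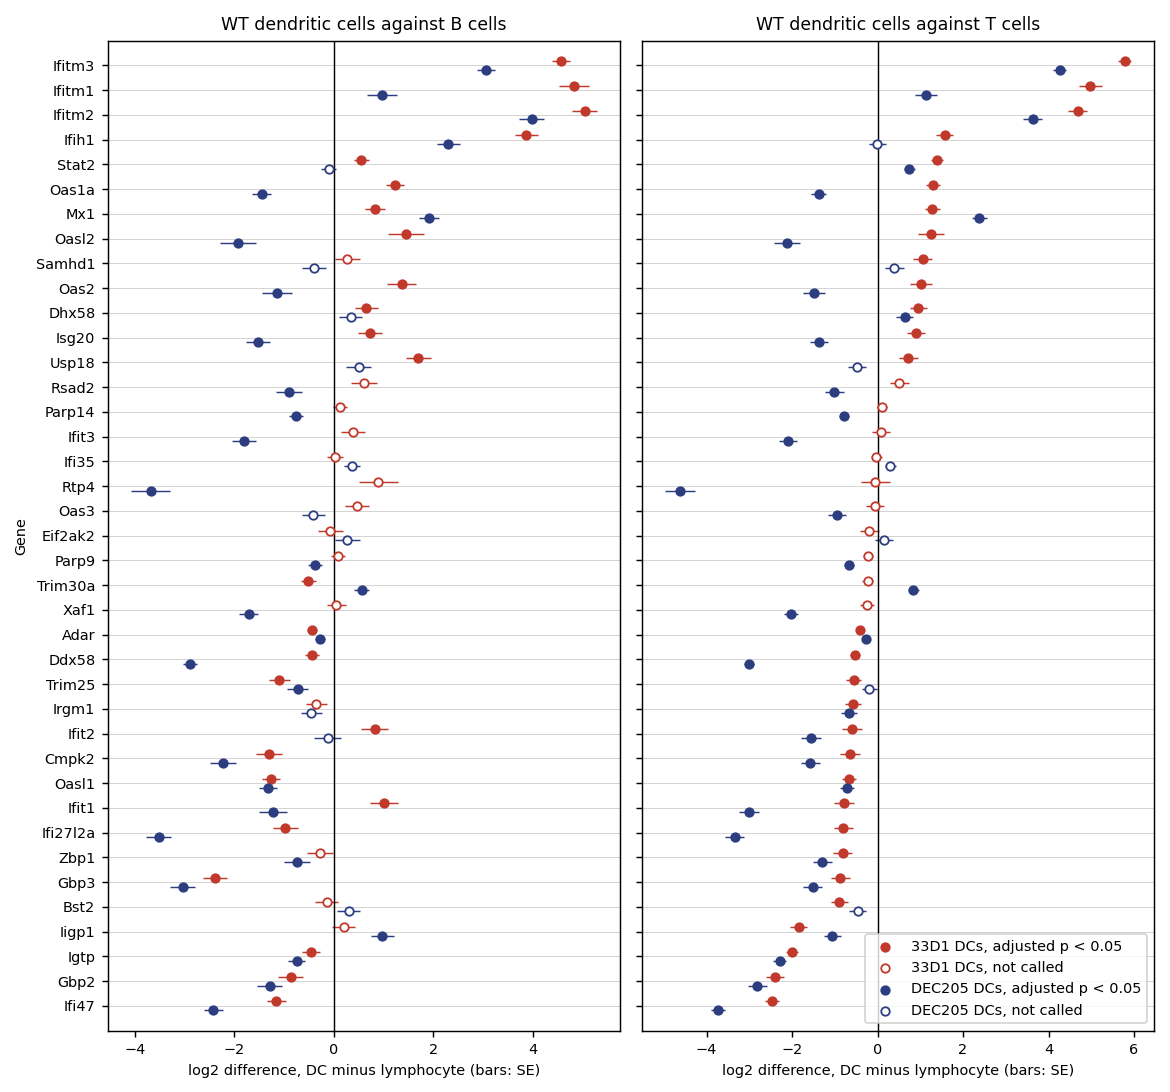
Log2 difference of the 39 genes between WT dendritic cells and B cells (left) or the mean of CD4 and CD8 T cells (right), for 33D1 (red) and DEC205 (blue) DCs, with standard errors of the limma fit as bars and filled points for an adjusted p under 0.05. The 3 Ifitm genes lie right of 0 in every comparison, Ifi47, Gbp2 and Igtp lie left of it, and the blue points of Rtp4, Ddx58 and Ifi27l2a lie far left of the red ones.

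Among the lymphocytes, B cells had 8 of the 39 genes higher and 10 lower than T cells (13.1% and 13.9% of all genes). Gbp3 had 1478, 1465 and 1998 in B cells, 519, 786 and 639.9 in CD8 T cells and 429, 338 and 622 in CD4 T cells (1.52 ± 0.22, adjusted p = 7.48e-06). Ifitm3 had 571, 963 and 643 in B cells, 169.8, 242 and 198 in CD8 T cells and 362, 408 and 365 in CD4 T cells (1.21 ± 0.15). Stat2 had 1111, 1403 and 960.4 in B cells, 628, 624 and 569 in CD8 T cells and 621, 671 and 599 in CD4 T cells (0.84 ± 0.13). In all 3 the B cell arrays lay above the T cell arrays. Samhd1 had 7659.8, 7246 and 6763 in B cells, 3445, 2763 and 4293 in CD8 T cells and 3476, 5409 and 6644 in CD4 T cells (0.79 ± 0.22, adjusted p = 0.0085).

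On the lower side, Ifih1 had 90.3, 248 and 142 in B cells, 672, 611 and 777 in CD8 T cells and 1332, 1450.4 and 1083 in CD4 T cells (-2.31 ± 0.20, adjusted p = 2.81e-09). Iigp1 had 305, 297 and 315 in B cells, 894, 1390.5 and 1121 in CD8 T cells and 2050.1, 1909.5 and 1386 in CD4 T cells (-2.03 ± 0.20). Ifit1 had 286, 322 and 200 in B cells, 859, 926 and 1496 in CD8 T cells and 1147, 1369 and 669 in CD4 T cells (-1.79 ± 0.24). In these 3 every B cell array lay below every T cell array. Igtp had 1965, 2156 and 1531 in B cells, 4769, 4837 and 6737 in CD8 T cells and 5232, 7253 and 4829 in CD4 T cells (-1.54 ± 0.15), with the same layout.

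Between CD8 and CD4 T cells 3 of the 39 genes were called. Mx1 was higher in CD8 T cells, with 425, 409 and 592 against 216, 275 and 184 in CD4 T cells (0.93 ± 0.20, adjusted p = 0.00658). Ifitm3 and Ifih1 were lower in CD8 T cells, with differences of -0.77 ± 0.18 (adjusted p = 0.0145) and -0.86 ± 0.23 (adjusted p = 0.0371) and the array values given above. Over all genes 1.63% were called higher and 1.63% lower. Arrays of the groups did not overlap for 3 genes above (6.74% of all genes) and 4 below (7.02%). Without replicate 3 of the CD8 T cells 5 genes were called, and none was called when each array was centred on its median.

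Genes that make and carry the interferon signal changed in both directions between the subsets. Of 37 tested genes of interferon production and signalling, 9 were higher and 6 lower in 33D1 than in DEC205 DCs of WT mice (11.3% and 11.8% of all genes), with a median of 0 against 0.04 over all genes, and 10 were higher and 7 lower in Flt3L mice (11.7% and 11.8%). Irf7, the factor that drives interferon-alpha transcription, had 2771, 2466 and 2284 in 33D1 DCs and 2198, 2841 and 2519.5 in DEC205 DCs of WT mice and was not called (0.00 ± 0.23). Irf9 had 0.06 ± 0.12 and the receptor chain Ifnar1 -0.28 ± 0.14, neither called, while Ifnar2 was higher in 33D1 DCs by 0.49 ± 0.12 (adjusted p = 0.00498). Of the kinases of this receptor, Tyk2 was lower in 33D1 DCs (-1.12 ± 0.15, limma adjusted p = 5.39e-06) and Jak1 was higher (0.34 ± 0.11, adjusted p = 0.0283). Among the genes with the smallest limma p-values, Tlr3 and Irf8 also served here as markers of DEC205 DCs. Tlr3, a sensor of double-stranded RNA, was lower in 33D1 DCs (-4.98 ± 0.27), as was Irf8, a factor of the CD8-positive DC lineage (-6.12 ± 0.42). The sensor of single-stranded RNA Tlr7 was higher by 3.61 ± 0.37, and the phosphatase Ptpn6 by 1.92 ± 0.14.

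None of the 37 was called between Flt3L and WT mice in either subset by limma, in comparisons where few genes of any kind were called (0.851% higher and 0.158% lower in 33D1 DCs, 1.22% and 0.888% in DEC205 DCs). Irf7 had 4413, 4552 and 3889.5 in 33D1 DCs of Flt3L mice and 2771, 2466 and 2284 in those of WT mice (0.76 ± 0.23, adjusted p = 0.131), and 4700.3, 5201 and 3195 and 2198, 2841 and 2519.5 in DEC205 DCs (0.76 ± 0.23, adjusted p = 0.0935). Every Flt3L array of Irf7 lay above every WT array of its subset, although neither difference passed the test. Irf9 had 0.32 ± 0.12 in 33D1 and 0.34 ± 0.12 in DEC205 DCs. The interferon genes themselves were dim, and Ifnb1 read 138, 249.8 and 148 in 33D1 DCs of Flt3L mice and 185, 166 and 171 in those of WT mice. Ifng read 46.7, 23.2 and 4.3 and 25.3, 25.5 and 6.9 in the same groups, and all 6 values were far below the table median.

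A further list of 54 tested interferon-induced genes outside the 42 had 19 higher and 11 lower in 33D1 DCs of WT mice (11.3% and 11.8% of all genes), with a median of 0.16. The genes with the smallest p-values were Cxcl9, a chemokine for activated T cells, which was lower in 33D1 DCs (-5.20 ± 0.19), and Ms4a6b, Ms4a4c and Ms4a4b, which were higher by 2.73 ± 0.13, 3.98 ± 0.20 and 2.26 ± 0.14. Between Flt3L and WT mice 7 were higher and none lower in 33D1 DCs (0.851% and 0.158% of all genes), where Xdh, xanthine dehydrogenase, had 335, 344 and 455 in Flt3L mice and 55.1, 48 and 60.7 in WT mice (2.04 ± 0.27, adjusted p = 0.000154). In DEC205 DCs 8 were higher and 2 lower (1.22% and 0.888%). Lgals9, which encodes galectin-9, had 2676, 2609 and 1596 in DEC205 DCs of Flt3L mice and 593, 613 and 712 in those of WT mice (1.74 ± 0.16, adjusted p = 4e-06). Lgals3bp was called in both subsets, at 0.78 ± 0.15 in 33D1 and 1.02 ± 0.15 in DEC205 DCs. The difference between the Flt3L effects passed the test for Ms4a4b (1.08 ± 0.20, larger in 33D1 DCs) and Lgals9 (-1.23 ± 0.23, larger in DEC205 DCs).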

How the data were processed

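Each deposited value is a linear intensity for 1 probe set. The submitters' processing notes name GCOS and MAS5, with no version in the sources used here. Total RNA from Qiagen Mini columns was turned into biotinylated cRNA, per the labels' protocols. The 2% trimmed mean of every array was 500, so the authors had scaled the arrays before deposit. The number of arrays, 3 a group, limits the precision.

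Groups came from sample titles; the description field calls the lymphocyte samples DCs, and their marker sums matched the titles. Of 45101 probe sets, 34945 had 1 gene symbol in the platform annotation and 932 had several, and probe sets with several or none were left out of the tests. Probe sets above the table median of 156.3 on at least 3 arrays were kept, and each gene took the kept probe set with the highest mean signal. All 21 arrays entered 1 limma fit (version 3.58.1, R 4.3.3) of log2(signal + 48.6), where 48.6 is the signal at percentile 25 of all values. Group means were fitted by lmFit, variances were moderated by eBayes with an intensity trend, and 14 residual degrees of freedom remained. Contrasts were two-sided, 11 in all, with Benjamini-Hochberg adjustment over 13284 genes. The fit was tested on simulated data. Figures were drawn with matplotlib 3.10.9.

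The genes, lists and tests were chosen with earlier results of these data known. Values on every array are given for the 8 called genes with the largest difference in each direction between the WT subsets, 6 in each Flt3L comparison, and 4 in each direction in each lymphocyte comparison. From the other lists Irf7, Irf9, Ifnar1 and Ifnar2 were always named, with up to 4 genes of smallest p in each DC comparison, of which some are shown. Jak1, Tyk2, Ifnb1 and Ifng were named besides.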

Additional observations from a re-analysis of the deposited data

How the results depend on the processing

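The count of genes called between 33D1 DCs of Flt3L and WT mice, 8 in the main analysis, was the least stable value. It was 3 with an offset of 16 signal units, 3 with no filter on dim probe sets, 0 with median centring, 1 without the intensity trend, 17 with only the groups of the comparison, 5 without both arrays that held transcripts of the other subset, and 0 to 4 when 1 array was left out. With the replicate number as a block it was 4. Same-numbered arrays had deviations that correlated between -0.38 and 0.36, so the numbers were not taken to pair the pools. The count of 33D1 WT DCs against B cells, 25, was 16 with median centring. The count of CD8 against CD4 T cells, 3, was 0 with median centring, 5 with the mean of all kept probe sets, and 2 to 5 when 1 array was left out. The other counts stayed within 1.5 times their main value under each alternative run, and leaving out 1 array gave 21 to 27 for the subsets of WT mice, 21 to 26 for the subsets of Flt3L mice, 4 to 7 for Flt3L in DEC205 DCs and 0 for the difference of the Flt3L effects. The cause of these changes was not tested. No called gene reversed its direction in the DC comparisons. Median centring moved the median of all genes from -0.16 to 0.05 for DEC205 DCs against T cells and by less in the other comparisons, so small differences from T cells depend on the scaling. Dim signals, such as those of Rtp4 and Oasl2 in DEC205 DCs, limit how large a fold can be read.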
